A study of Mus musculus with 24 samples.

Results

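mmu-miR-26a-5p, mmu-miR-26b-5p and mmu-miR-191-5p (here without the species prefix) are 3 of the 1881 mouse miRNAs on the array, and they were taken by their names in the scanner files. The set joins the miR-26 family with a miRNA described as abundant in human platelets. The members were selected on their measured levels in all 6 groups, including the difference between TSN and control at each day, so the differences between groups below are a description and no p-value is given for a member. The samples were serum exosomes (small vesicles released by cells) of male BALB/c mice, with 4 arrays in each of 6 groups. The treated groups received toosendanin (TSN, a triterpenoid from Melia plants that injures the liver) at 80 mg/kg for 3, 9 or 21 days, and the control groups received vehicle for 3, 9 or 21 days. Serum was drawn a day after the last dose in every group, no genetic change was made, and the labels used here give no age, vehicle or route.

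A miRNA is cut from a hairpin precursor and guides Argonaute proteins to messenger RNAs, mainly through its seed, the bases near its 5′ end that pair with the target. miR-26a-5p and miR-26b-5p come from hairpins inside genes of the CTDSP phosphatase family, with which they are known to be co-expressed, and Ezh2 is among their known targets. miR-191-5p comes from a hairpin that lies beside that of miR-425 in the same host gene, and it is found in many tissues and in human blood cells.

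The mature sequences, from RefSeq on GRCm38.p6, show what the family shares, with the seed (bases 2 to 8) in capitals.
miR-26a-5p: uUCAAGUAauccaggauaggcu
miR-26b-5p: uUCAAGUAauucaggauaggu
miR-191-5p: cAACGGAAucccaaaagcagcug
All 3 members matched the table. The miR-26 seed was held by 2 of its 1679 mature names, miR-26a-5p and miR-26b-5p, and the seed of miR-191-5p by that name alone. miR-26b-5p has 21 bases against 22 in miR-26a-5p, and the pair differs at C11U and C21U, counted from the 5′ end with the miR-26a-5p base first. miR-26a-5p comes from a pair of hairpins with the same mature letters, Mir26a-1 at chr9:119031811-119031832 within the span of Ctdspl and Mir26a-2 at chr10:126995543-126995564 within Ctdsp2. miR-26b-5p lies at chr1:74394324-74394344 within Ctdsp1. miR-191-5p lies at chr9:108568325-108568347 within Dalrd3, 384 bases from Mir425, and all of these are on the plus strand.

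The probes decide how well the members can be told apart, so those that stand for each member are printed 5′ to 3′.
miR-26a-5p probe of 16 bases: agcctatcctggatta
miR-26b-5p probe of 20 bases: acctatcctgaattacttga
miR-191-5p probe of 14 bases: cagctgcttttggg
The miR-26a-5p probe pairs with bases 7 to 22 and has 3 mismatches to miR-26b-5p at the best ungapped placement. These are C11U, C21U and the overhang at base 22, past the end of the shorter miR-26b-5p. The miR-26b-5p probe pairs with bases 2 to 21 and has 2 mismatches to miR-26a-5p. Cross-hybridisation between the pair was not tested. Neither probe distinguishes the copies Mir26a-1 and Mir26a-2, whose mature products are identical.

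Levels are given as log2 of a probe's signal over the 75th percentile of that array's signal, computed on the 261 probes that all 24 arrays measured well above background. That percentile ran from 736.8 to 1748 units on the TSN arrays and from 73.55 to 609.2 units on the control arrays, and 378 to 467 miRNAs were well above background on a TSN array against 183 to 351 on a control array. No slide held both arms, so treatment and slide cannot be told apart in any comparison of TSN with control. The same holds for the date of scanning. The control slides 1 and 2 were scanned on scan days 1 and 2. The TSN slides 3 and 4 were both scanned on scan day 3. Control days 3 and 9 shared slide 1, and TSN days 9 and 21 shared slide 4. Whether a sample was 1 mouse or a pool is not given in the labels, so spread between arrays may be technical. Of the 1881 miRNAs, 441 were well above background on all 4 arrays of some group and were tested with limma at a Benjamini-Hochberg adjusted p of 0.05.

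miR-26a-5p was higher in TSN exosomes at day 3. Its 4 arrays read -1.90, -1.19, -1.52 and -1.65 in the TSN day 3 group, against -3.68, -3.23, -3.28 and -3.23 in the control day 3 group. Every TSN array lay above every control array. The change was 1.79 (log2, SE 0.23), or 3.45-fold, which passed the threshold and ranked 13 from the top of the 441 miRNAs tested. The median change of all tested miRNAs was 0.10. Before scaling, the control day 3 signals of miR-26a-5p were 9.245 to 23.22 units, against 322 to 412.5 units in the TSN day 3 group. The lowest signal above background on those control arrays was 7.238 to 8.528 units. Part of the control day 3 values thus lay near the detection limit.

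miR-26b-5p moved the same way by less. Its level was -2.52, -2.08, -2.46 and -2.25 in the TSN day 3 group and -3.66, -3.13, -3.11 and -3.31 in the control day 3 group. The groups did not overlap, and the change was 0.98 (SE 0.23), or 1.97-fold, which passed the threshold. At day 3, 47.8% of the miRNAs tested passed in either direction, 29.3% passed as higher, and 24.3% were higher with no overlap between groups. Of the 211 miRNAs that passed, 129 were higher, against 300 of 323 with the labelling spike-ins and 23 of 371 with normexp. The members were picked with this contrast known, so nothing is read from 2 of 3 passing. Normexp background correction adds 50 units to every signal before scaling, which raises low signals most on the dimmer control arrays. With it the change was 0.14 for miR-26a-5p and -0.52 for miR-26b-5p, neither passing, while the median of all tested miRNAs stood at -1.55. Relative to that median both lay on the high side, at 1.69 and 1.03. So did the medians of the platelet, leukocyte, red cell and serum reference lists described below, at 0.69, 0.47, 1.197 and 0.56. The added units pull the dimmest miRNAs down most in TSN against control. A place above the median is thus partly built in for brighter miRNAs, and nothing is read from it. The TSN arrays were also the brighter ones, and within groups the unscaled log2 signal went up by 0.80 for miR-26a-5p and 0.88 for miR-26b-5p per unit of the log2 75th percentile. By arm, that slope was 0.35 on the TSN arrays and 0.86 on the control arrays for miR-26a-5p, and 0.61 on the TSN arrays and 0.91 on the control arrays for miR-26b-5p. The part of array brightness in the day 3 changes was not tested.

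**Figure D1:**
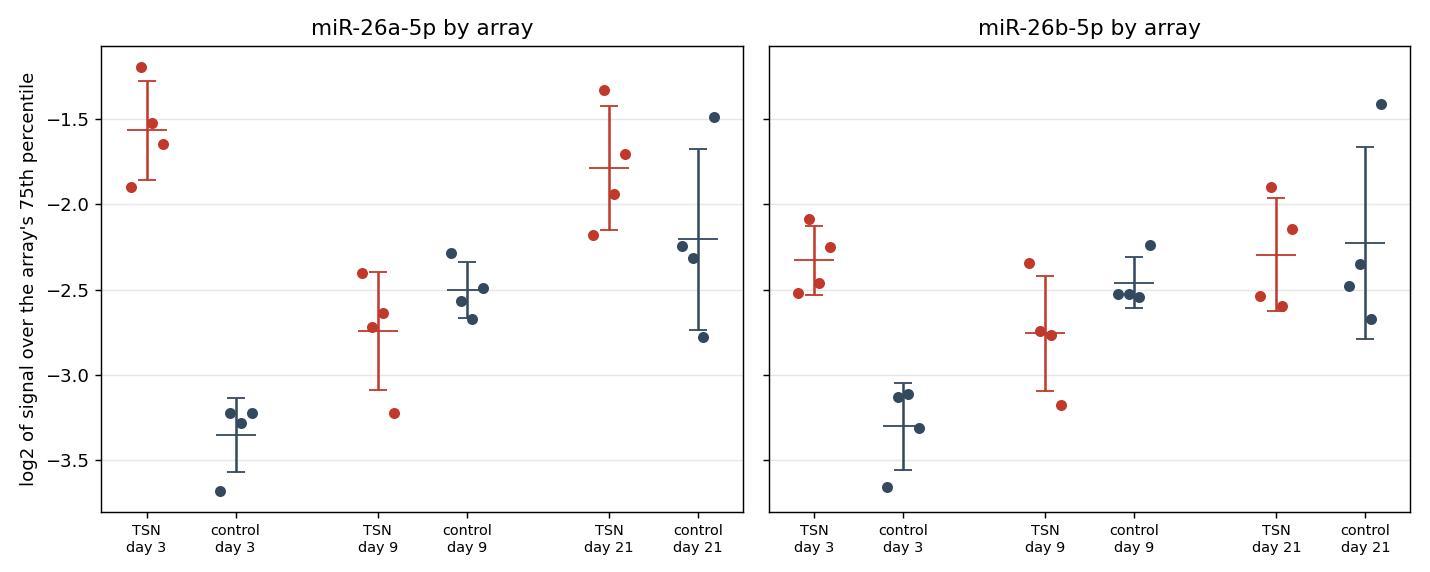
Level of miR-26a-5p (left) and miR-26b-5p (right) on each array, as log2 of signal over the array's 75th percentile, for TSN and control at days 3, 9 and 21; points are arrays and bars are the mean and SD of 4 arrays. At day 3 all TSN points lie above all control points for both miRNAs, and at days 9 and 21 the groups overlap.

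At day 9 the arms overlapped for both. miR-26a-5p read -2.40, -2.72, -2.64 and -3.22 in the TSN day 9 group and -2.29, -2.57, -2.68 and -2.49 in the control day 9 group, a difference of -0.24 (SE 0.23). miR-26b-5p read -2.35, -2.75, -2.76 and -3.18 in the TSN day 9 group and -2.53, -2.53, -2.55 and -2.24 in the control day 9 group, a difference of -0.30 (SE 0.23). Neither passed, in a comparison where 62.1% of the miRNAs tested did. Of those 274, 122 were higher, against 241 of 269 with scaling on all probes and 323 of 347 with the labelling spike-ins. The sign at day 9 turned with the scaling: miR-26a-5p was 1.503 and miR-26b-5p 1.44 with the labelling spike-ins, and both passed as higher there.

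At day 21 the arms overlapped again. miR-26a-5p read -2.18, -1.33, -1.94 and -1.70 in the TSN day 21 group and -2.24, -2.31, -2.78 and -1.49 in the control day 21 group, a difference of 0.42 (SE 0.23). miR-26b-5p read -2.54, -1.90, -2.60 and -2.14 in the TSN day 21 group and -2.48, -2.35, -2.67 and -1.41 in the control day 21 group, a difference of -0.07 (SE 0.23). Neither passed, against 44.9% of the miRNAs tested. Of those 198, 102 were higher, against 229 of 243 with the labelling spike-ins. Control day 21 replicate 4 was the highest control array for both. Without it the difference was 0.66 for miR-26a-5p, which then passed, and 0.21 for miR-26b-5p, which did not.

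The TSN difference had lower values on the later days than at day 3, which is a description, since the members were selected on these values. From day 3 to day 9 it changed by -2.03 (SE 0.33) for miR-26a-5p and by -1.27 (SE 0.32) for miR-26b-5p, and both passed, as did 19% of the miRNAs tested, 15.2% as lower. From day 3 to day 21 it changed by -1.37 (SE 0.33) for miR-26a-5p and by -1.04 (SE 0.32) for miR-26b-5p, and both passed, as did 13.4% of those tested, 9.3% as lower. These calls varied in how well they held: the day 9 change failed the threshold under 3 of 15 alternatives for miR-26a-5p and 8 of 15 for miR-26b-5p. The day 21 change failed under 4 of 15 for miR-26a-5p and 9 of 15 for miR-26b-5p, and for miR-26b-5p it also failed in 10 of 16 fits that each left out 1 array. Between days 9 and 21 the change was 0.66 (SE 0.33) for miR-26a-5p and 0.23 (SE 0.32) for miR-26b-5p, and neither passed, where 35.1% of those tested did.

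Ordered by mean level, miR-26a-5p ran TSN day 3, TSN day 21, control day 21, control day 9, TSN day 9 and control day 3, with means of -1.57, -1.79, -2.21, -2.51, -2.74 and -3.35. Only the last neighbours in that order, TSN day 9 and control day 3, did not overlap. For miR-26b-5p the order was control day 21, TSN day 21, TSN day 3, control day 9, TSN day 9 and control day 3, with means of -2.23, -2.29, -2.33, -2.46, -2.76 and -3.30, and every pair of neighbours overlapped. The control day 3 group was thus the lowest for both miRNAs, with part of its values near the detection limit. Low signals were not confined to it. Before scaling, control day 9 read 13.09 to 45.66 units for miR-26a-5p and 15.59 to 49.98 units for miR-26b-5p. The lowest signal above background on those arrays was 7.663 to 10.33 units. Control day 21 replicate 1 read 17.18 units for miR-26a-5p and 14.62 units for miR-26b-5p.

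Comparisons on a single slide avoid the difference between slides, but the row of an array on its slide was not part of any fit. On slide 4, miR-26a-5p was higher in TSN day 21 than in TSN day 9 exosomes by 0.96 (SE 0.23), with no overlap, and passed, as did 43.3% of the miRNAs tested. Of those tested, 30.6% passed as higher and 25.9% were higher with no overlap. It failed the threshold under 5 of 15 alternatives. miR-26b-5p differed there by 0.46 (SE 0.23), with overlap, and did not pass. On slide 1, control day 9 exceeded control day 3 by 0.85 (SE 0.23) for miR-26a-5p and 0.84 (SE 0.23) for miR-26b-5p, both passing with no overlap, against 14.1% of the miRNAs tested. Of all tested, 9.75% passed as higher and 12.5% were higher with no overlap. Each failed under 8 of 15 alternatives, and in 6 of 8 fits without 1 array for miR-26a-5p and 4 of 8 for miR-26b-5p.

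The difference between the paired miRNAs on the same array is not touched by dividing each array by a single number. Quantile scaling, which is no such division, gave 0.76 at day 3 and 0.52 at day 21 for the values of 0.81 and 0.48 that follow. Slide stays tied to arm in these values, since TSN and control lay on different slides. At day 3, miR-26a-5p minus miR-26b-5p was 0.62, 0.89, 0.94 and 0.61 on the TSN arrays and -0.02, -0.10, -0.17 and 0.08 on the control arrays. The groups did not overlap and their means differed by 0.81 (SE 0.11), so the ratio of the 2 signals was 1.76-fold higher in TSN exosomes. At day 9 it was -0.06, 0.03, 0.13 and -0.05 on the TSN arrays and 0.24, -0.04, -0.13 and -0.25 on the control arrays, which overlapped and differed by 0.06 (SE 0.11).

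At day 21 the difference was 0.36, 0.57, 0.66 and 0.44 on the TSN arrays and 0.23, 0.04, -0.10 and -0.08 on the control arrays. The groups did not overlap and differed by 0.48 (SE 0.11), a 1.399-fold higher ratio. With the miR-26b-5p probe of 19 bases in place of that of 20, the day 21 groups overlapped, at a difference of 0.41. With the 4 pairings of the probes the day 3 difference ran from 0.61 to 0.82. On slide 4 alone, TSN day 21 exceeded TSN day 9 by 0.49 (SE 0.11) with no overlap. A ratio within an array shows that the 2 signals changed unequally and not which one changed. How often other pairs of miRNAs separate in this way was not computed.

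**Figure D2:**
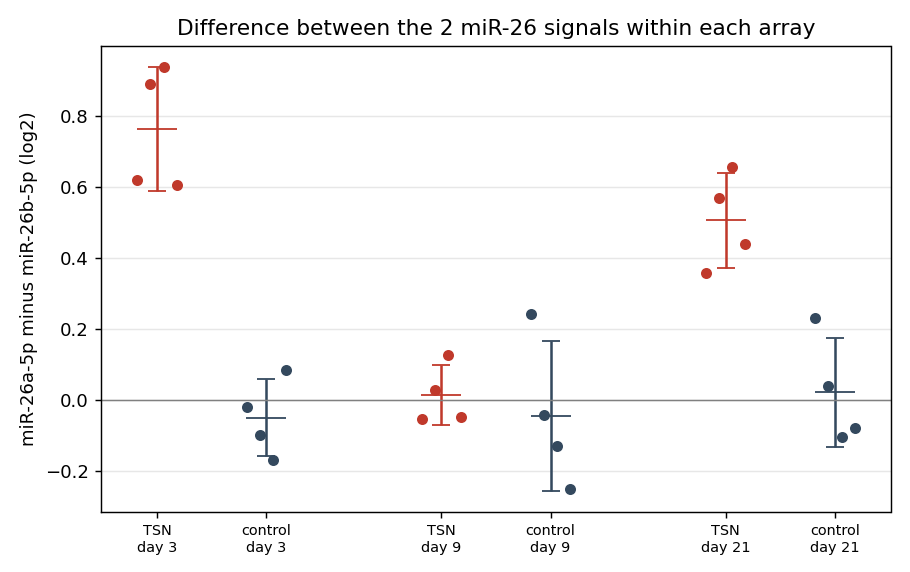
log2 signal of miR-26a-5p minus that of miR-26b-5p within each array, for TSN and control at days 3, 9 and 21; points are arrays and bars are the mean and SD of 4 arrays. The TSN points sit at 0.61 to 0.94 at day 3 and 0.36 to 0.66 at day 21, above all control points of the same day, and around 0 at day 9.

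miR-191-5p was near the detection limit. On its 14-base probe the background-subtracted signal was 21.2, 7.04, 23.2 and 11.4 units in the TSN day 3 group, against -1.09, 0.61, 0.21 and 1.08 units in the control day 3 group. It was 36.5, 31.8, 17.6 and 19.1 units in the TSN day 9 group, against 2.03, 0.024, 1.34 and 0.53 units in the control day 9 group. At day 21 it was 32.5, 19.1, 22.5 and 21.1 units in the TSN group and -0.27, 2.15, 2.06 and 1.08 units in the control group. Every TSN array lay above every control array before scaling, as the brightness of the arrays did.

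The 14-base probe passed the background criterion on 11 of 12 TSN arrays and 0 of 12 control arrays, and the 15-base probe on 10 and 0. The probes of 13 and 12 bases were above background on 0 of 24 arrays in both arms, so the shorter probes of the same miRNA gave no measurable signal in either arm. The TSN means came to 1.25%, 1.65% and 1.67% of the 75th percentile at days 3, 9 and 21. At those shares a control array would have read under its lowest signal above background on 4 of 4 arrays at day 3, 4 of 4 at day 9 and 3 of 4 at day 21. The control groups therefore have only a bound, and no fold is given, because the TSN mean lay below that bound at each day. With values at the floor of -6.21, the fitted changes were 0.16, 0.22 and 0.30, and none passed. miR-191-5p entered the tested set through 2 TSN groups alone, so a test of TSN against control on it favours a higher TSN value, and its calls are given only to show their spread. It passed as higher under 5, 9 and 7 of 15 alternatives at days 3, 9 and 21, and as lower with normexp at each day. The normexp setting adds 50 units to every signal before scaling, a larger share of the 75th percentile on the dimmer control arrays. Its lower calls for so weak a signal are thus partly built in.

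**Figure D3:**
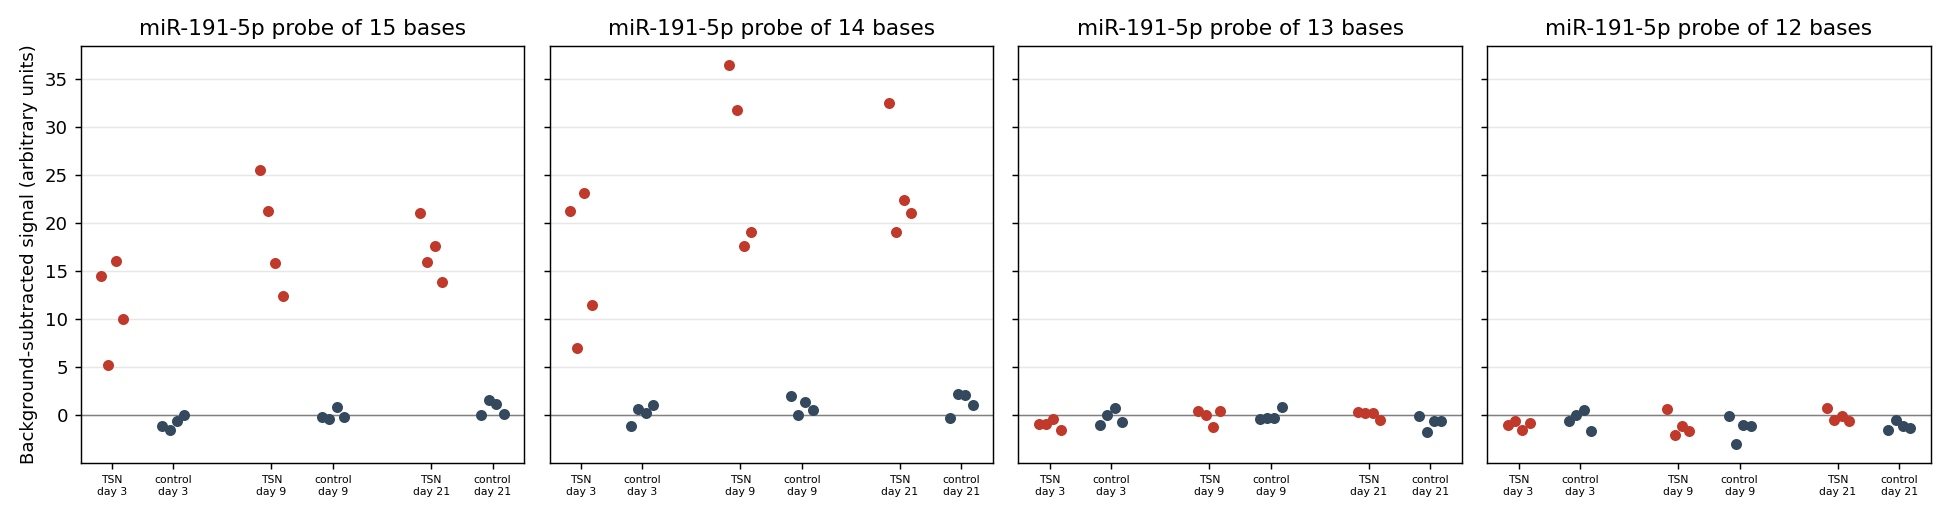
Background-subtracted signal of the 4 miR-191-5p probes on each array, in arbitrary units before scaling, for TSN and control at days 3, 9 and 21. The probes of 15 and 14 bases read up to 25.6 and 36.5 units on TSN arrays and at most 1.62 and 2.15 units on control arrays, and the probes of 13 and 12 bases stay near 0 in both arms.

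The opposite strands of the members' hairpins and the products of the neighbouring Mir425 hairpin were measured too. The opposite strands miR-26a-1-3p, miR-26a-2-3p and miR-26b-3p, and miR-425-3p from Mir425, were well above background on 0 of 24 arrays, and the opposite strand miR-191-3p on 1 of 12 arrays from TSN mice and 0 of 12 from controls. miR-425-5p, which shares the miR-191 cluster, was above background on 12 of 12 TSN arrays and 11 of 12 control arrays. Under the reported scaling it was higher in TSN exosomes at day 3 by 0.65 (SE 0.13) and passed, and it did not pass at day 9 (0.16) or day 21 (-0.07). Its control day 3 signals were 8.755 to 18.82 units before scaling, in part near the detection limit, with 3 of 4 arrays above background. On slide 1 its control day 9 level exceeded control day 3 by 0.685 (SE 0.13) and passed, as did 14.1% of the miRNAs tested.

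Likeness was measured over the 6 group means, each centred on its own average, as the root mean square difference from miRNAs above background on all 24 arrays. The nearest to miR-26b-5p were let-7a-5p at 0.088, let-7c-5p at 0.10 and let-7f-5p at 0.12. The nearest to miR-26a-5p besides its relative were let-7f-5p at 0.34, let-7c-5p at 0.34 and let-7a-5p at 0.37. miR-26b-5p itself stood at 0.32 from miR-26a-5p, rank 1 of 151. Seen from miR-26b-5p, the let-7 miRNAs named above were all nearer than miR-26a-5p was. The median distance over candidates was 0.67 for miR-26a-5p and 0.52 for miR-26b-5p, and it was not computed for miR-191-5p.

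Of the 10 miRNAs on the platelet list, which are also made by other blood or vessel cells, 7 were tested, and miR-28a-5p and miR-339-5p were well above background on 0 of 24 arrays. At day 3, 1 rose and 2 fell, with a median change of -0.06, where 29.3% of all tested rose and 18.6% fell. At day 9, 0 rose and 5 fell (median -0.63), where 27.7% of all tested rose and 34.5% fell, and the median was -0.04 over all tested and -0.40 over the 152 miRNAs above background on all arrays. At day 21, 0 rose and 6 fell (median -0.65), where 23.1% of all tested rose and 21.8% fell and their median was 0.01.

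The direction of that list turned with the scaling, along with the calls over all 441 tested. At day 9, 5 rose and 0 fell with the labelling spike-ins, where 323 of all tested rose and 24 fell. With the hybridisation spike-ins 7 rose and 0 fell there, against 396 and 6 of all tested. At day 21, 0 rose and 0 fell with the labelling spike-ins, where 229 of all tested rose and 14 fell. With the hybridisation spike-ins 7 rose and 0 fell, against 416 and 0 of all tested. The list median lay below the median of all tested under 8 of 11 alternatives at day 9 and 10 of 11 at day 21. That agreement is partly fixed in advance for settings that only divide each array by a number. Under the reported scaling miR-21a-5p, whose probe had the highest mean signal of the list, rose by 0.47 at day 3, fell by 0.54 at day 9 and fell by 0.65 at day 21. miR-223-3p, also a leukocyte miRNA, was at 0.03 at day 3, fell by 0.47 at day 9 and fell by 1.095 at day 21. miR-24-3p was at 0.19 and -0.31 at days 3 and 9, without passing, and fell by 0.56 at day 21.

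The leukocyte list, which shares miR-223-3p and miR-150-5p with the platelet list, moved alike under that scaling. Of its 6 tested members, 3 fell at day 9 (median -0.45) and 4 fell at day 21 (median -0.88), and 0 rose at either day. The summed scaled signal of the platelet list ran from 8.83 to 13.7 in the TSN day 3 group and from 6.80 to 9.90 in the control day 3 group. For the red cell list, all 5 of whose members were above background on every array, it ran from 28.3 to 48.0 and from 33.1 to 57.0 in those groups. At day 9 the red cell sum ran from 74.97 to 94.6 in the TSN group and from 33.2 to 65.8 in the control group, without overlap. Of its 5 members, 3 rose at day 9, miR-144-5p fell by 0.81, and miR-16-5p was at -0.03 without passing. The sum leans on miR-451a, whose mean level was 5.52, against 1.66 for miR-486a-5p. The platelet sum at day 9 ran from 9.385 to 11.18 in the TSN group and from 11.88 to 16.17 in the control group. It was thus lower in TSN under the reported scaling, without overlap. The platelet sum leans on miR-21a-5p, whose mean level was 2.95, against 0.60 for miR-223-3p. With the labelling spike-ins the median change of the platelet list at day 9 was 1.11, against 1.18 for all tested. How often sums of other miRNAs separate was not computed. The part of these cell types in the miR-26 results was not tested.

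Among miRNAs often used as serum references, all 8 were tested. At day 3, 3 rose and 2 fell, at day 9, 4 rose and 1 fell, and at day 21, 0 rose and 2 fell, which is read against the shares of all tested given above for each day. Over 11 other settings the number that rose at day 3 ran from 0 to 8 and the number that fell from 0 to 5. All 8 rose with the hybridisation spike-ins and with no scaling, where 398 and 386 of the 441 tested rose. The 5 fell with normexp, where 348 of the 441 tested fell. miR-16-5p fell by 1.08 at day 3 and by 1.33 at day 21 and was at -0.03 at day 9. miR-25-3p and miR-93-5p rose by 1.41 and 1.08 at day 9 and did not pass at day 3, at 0.05 and -0.06.

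**Figure D4:**
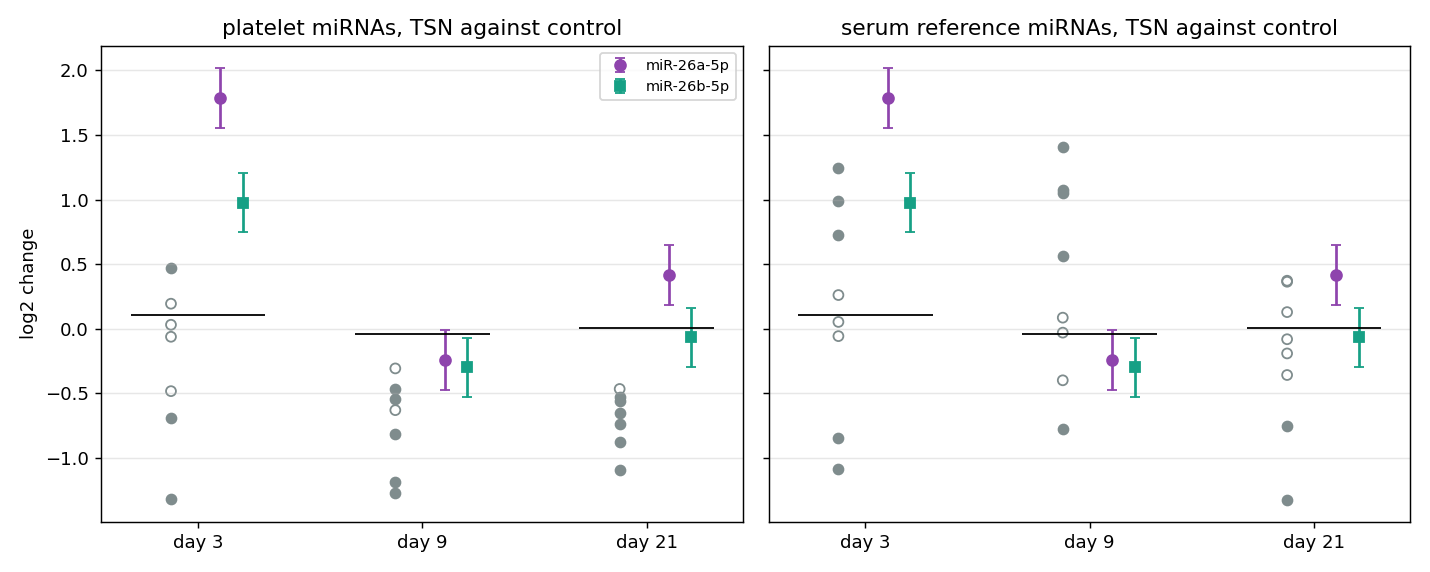
log2 change, TSN against control, of the tested platelet miRNAs (left, 7) and serum reference miRNAs (right, 8) at each day in grey, filled where the change passed the threshold, beside miR-26a-5p and miR-26b-5p with their SE; black lines are the median of all tested miRNAs. At day 3 miR-26a-5p, at 1.79, lies above every miRNA of both lists, and at day 9 both members lie between -0.30 and -0.24.

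The pair lay above the median of all tested miRNAs under every setting at day 3. Subtracting that median cancels a division of each array by a single number, except through the floor. Agreement between settings that differ only in that division was therefore partly fixed in advance. With normexp, a place above the median is partly built in for brighter miRNAs, as described above. The replicate block, the filter and the choice of arrays fitted leave the change itself as it was. Over the reported setting and 15 alternatives, the change minus the median of all tested ran from 1.09 to 2.42 for miR-26a-5p and from 0.57 to 1.61 for miR-26b-5p. At day 9 it ran from -0.38 to 0.91 and from -0.29 to 0.85, on both sides of 0. At day 21 it ran from 0.21 to 1.13 for miR-26a-5p and from -0.14 to 0.69 for miR-26b-5p.

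**Figure D5:**
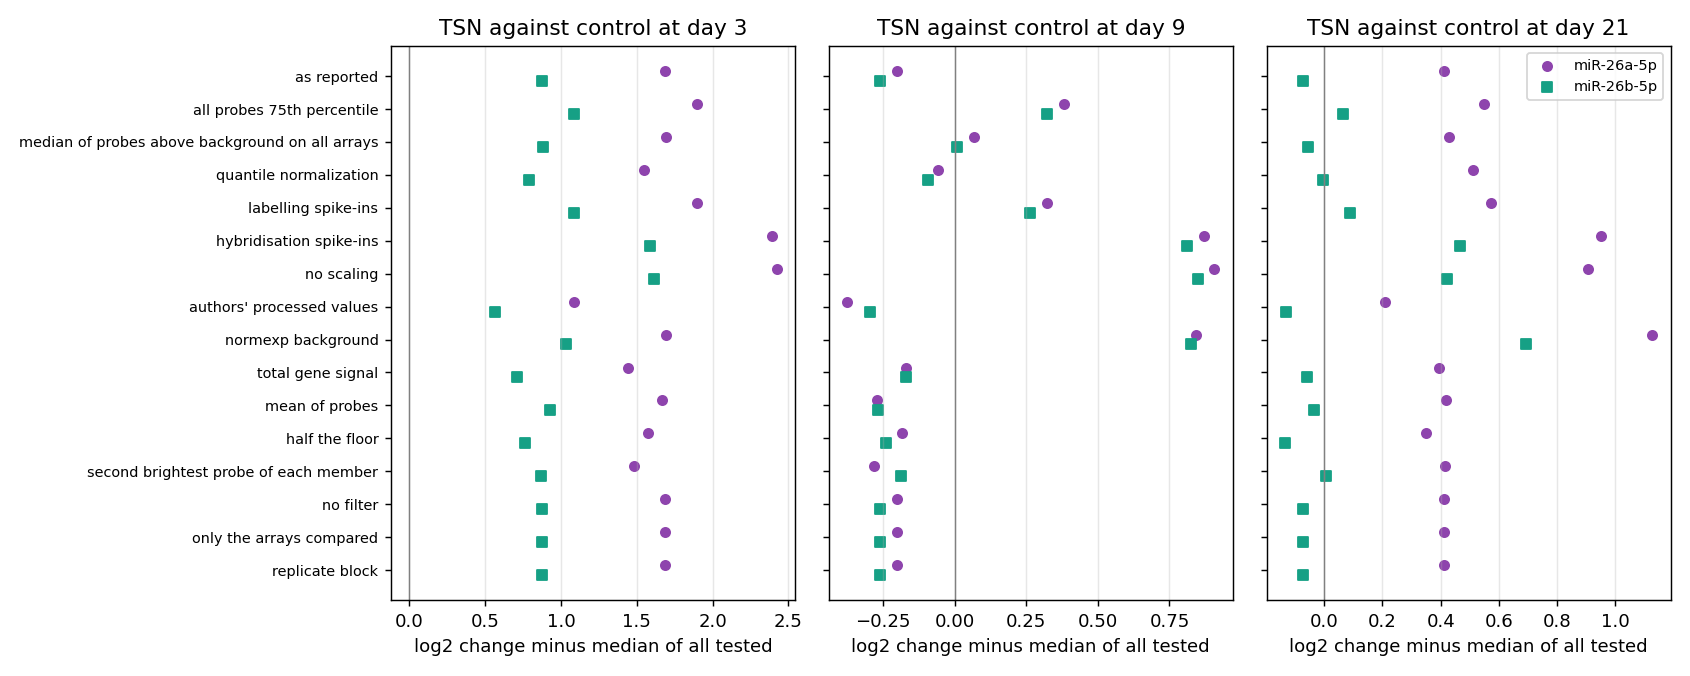
Change of miR-26a-5p and miR-26b-5p, TSN against control, minus the median change of all tested miRNAs (log2), at days 3, 9 and 21 under the reported setting and 15 alternatives. All points lie above 0 at day 3, and points lie on both sides of 0 at day 9.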

How the data were processed

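Serum exosome miRNA was measured on 24 one-colour Agilent arrays. The deposited scanner files hold intensity, which Feature Extraction 10.7.1.1 had background-subtracted, per the file headers, with no scaling between arrays. The authors' processed values, deposited as a separate table, are read as log2, since they increase with the logarithm of the scanner signal. How they were scaled and centred is unknown. Column medians were 4.373 to 4.4, and each column was most like its own array in 23 of 24 cases, control day 9 replicate 4 excepted. They served as an alternative.

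Control and outlier spots were removed and the remaining spots of each probe were averaged (11 to 15 of the 15 spots of the main miR-26a-5p probe, and 13 to 15 for miR-26b-5p). Signals were divided by the array's 75th percentile, a floor of 0.0135 was set, and log2 was taken. That floor is the lowest scaled signal above background, as a median across arrays. A probe was well above background where more than a 0.5 share of its spots was, and the brightest probe stood for a miRNA. The SE of a miR-26a-5p mean over its spots had a median of 1.12% on TSN arrays and 3.44% on control arrays, and the number of arrays limits the precision.

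One limma 3.58.1 fit (R 4.3.3, with data.table in version 1.17.8) covered the 6 groups, two-sided, with Benjamini-Hochberg adjustment at 0.05 over 441 miRNAs in each of 8 comparisons. It was tested on simulated data. Members and lists were chosen with earlier results of these data known. Named miRNAs were the 3 members, the 3 nearest to each in pattern, those of the same hairpins and cluster, and the 3 brightest of the platelet and serum reference lists. Replicate numbers equal slide columns. Same-numbered arrays deviated together only for TSN against control at day 9 (r of 0.20 to 0.36 in 4 of 4 pairs), and a fit with the number as a block was an alternative. Others were the scaling, background, probe summary, floor, filter, samples fitted and each array left out. Mature sequences, positions and host genes were read from RefSeq tables on GRCm38.p6, and no genome sequence was read.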

Additional observations from a re-analysis of the deposited data

Results flagged for a closer look

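With 22 groups of 4 values examined for a single distant array, chance alone would mark about 1 in 20. That rate does not hold for miR-191-5p, since values at the floor are tied and make a lone value above them stand out. At the floor were 2 of 4 values in the TSN day 3 group and 3 of 4 in the control day 9 group. miR-26a-5p on control day 3 replicate 1 read -3.68, and the other 3 arrays lay between -3.28 and -3.23. miR-26b-5p on control day 9 replicate 4 read -2.24, above the other 3 at -2.55 to -2.53, and this array's column in the authors' table was the one that did not match its own array best. miR-191-5p on TSN day 3 replicate 3 read -5.59, above the other 3 at -6.21 to -6.18, and on control day 9 replicate 1 it read -5.86 while the other 3 were at the floor of -6.21.

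The difference between TSN and control was not the same size on each day. The members were picked with these values known, so the interaction terms are given as a description and no verdict rests on them. From day 3 to day 9 the term was -2.03 for miR-26a-5p and -1.27 for miR-26b-5p. From day 3 to day 21 the term was -1.37 for miR-26a-5p and -1.04 for miR-26b-5p. TSN day 3 lay on a slide of its own, so slide and day cannot be told apart in these differences.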

How the results depend on the processing

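For each comparison 15 alternatives were run. The day 3 changes of miR-26a-5p and miR-26b-5p kept direction and call under 14 of 15, all but normexp. Values below are those that changed sign, call or, for a count, by over 1.5 times. An alternative at exactly 0 has no direction and is not counted as a change of sign. The cause was not tested, and fitted miR-191-5p changes rest on values at the floor. The normexp setting adds 50 units to every signal before scaling, which by construction raises low signals most on the dimmer control arrays. miR-26a-5p in TSN against control at day 3 (1.79) was short of the threshold at 0.14 (normexp). miR-26b-5p in TSN against control at day 3 (0.98) was of opposite sign at -0.52 (normexp). miR-191-5p in TSN against control at day 3 (0.16) was of opposite sign at -2.12 (normexp) and past the threshold at 0.76 (hybridisation spike-ins), 0.66 (no scaling), 0.21 (the authors' values), 0.80 (total gene signal), 0.88 (a lower floor). The number called in TSN against control at day 3 became 323 (labelling spike-ins), 400 (hybridisation spike-ins), 388 (no scaling), 371 (normexp). miR-26a-5p in TSN against control at day 9 (-0.24) was of opposite sign at 1.15 (all-probe scaling), 0.24 (median scaling), 1.503 (labelling spike-ins), 3.33 (hybridisation spike-ins), 3.32 (no scaling) and past the threshold at -1.23 (normexp). miR-26b-5p in TSN against control at day 9 (-0.30) was of opposite sign at 1.09 (all-probe scaling), 0.18 (median scaling), 1.44 (labelling spike-ins), 3.27 (hybridisation spike-ins), 3.26 (no scaling), 0.04 (the authors' values) and past the threshold at -1.25 (normexp). miR-191-5p in TSN against control at day 9 (0.22) was of opposite sign at -2.53 (normexp) and past the threshold at 0.48 (all-probe scaling), 0.67 (median scaling), 0.47 (quantile scaling), 0.96 (labelling spike-ins), 1.44 (hybridisation spike-ins), 1.38 (no scaling), 0.28 (the authors' values), 1.43 (total gene signal), 0.93 (a lower floor). miR-26a-5p in TSN against control at day 21 (0.42) was of opposite sign at -0.24 (normexp) and past the threshold at 0.52 (quantile scaling), 1.23 (labelling spike-ins), 3.12 (hybridisation spike-ins), 2.97 (no scaling). miR-26b-5p in TSN against control at day 21 (-0.067) was of opposite sign at 0.25 (all-probe scaling), 0.002 (quantile scaling), 0.75 (labelling spike-ins), 2.63 (hybridisation spike-ins), 2.49 (no scaling), 0.028 (the authors' values), 0.05 (total gene signal), 0.013 (the second probe) and past the threshold at -0.67 (normexp). miR-191-5p in TSN against control at day 21 (0.3) was of opposite sign at -1.85 (normexp) and past the threshold at 0.56 (labelling spike-ins), 1.30 (hybridisation spike-ins), 1.27 (no scaling), 0.27 (the authors' values), 1.26 (total gene signal), 1.30 (a lower floor), 0.30 (only the arrays compared). The number called in TSN against control at day 21 became 416 (hybridisation spike-ins), 413 (no scaling), 359 (normexp). miR-26a-5p in the day 9 minus day 3 change of the TSN difference (-2.03) was short of the threshold at -1.35 (all-probe scaling), -1.37 (hybridisation spike-ins), -1.30 (no scaling). miR-26b-5p in the day 9 minus day 3 change of the TSN difference (-1.27) was short of the threshold at -0.60 (all-probe scaling), -0.79 (median scaling), -0.64 (labelling spike-ins), -0.62 (hybridisation spike-ins), -0.55 (no scaling), -0.81 (the authors' values), -0.73 (normexp), -1.13 (total gene signal). miR-191-5p in the day 9 minus day 3 change of the TSN difference (0.061) was of opposite sign at -0.41 (normexp). Calls in the day 9 minus day 3 change of the TSN difference numbered 35 (all-probe scaling), 41 (labelling spike-ins), 23 (hybridisation spike-ins), 17 (no scaling), 39 (the authors' values), 20 (normexp), 25 (total gene signal), 44 (no filter). miR-26a-5p in the day 21 minus day 9 change (0.66) was of opposite sign at -0.42 (all-probe scaling), -0.27 (labelling spike-ins), -0.21 (hybridisation spike-ins), -0.35 (no scaling). miR-26b-5p in the day 21 minus day 9 change (0.23) was of opposite sign at -0.84 (all-probe scaling), -0.20 (median scaling), -0.70 (labelling spike-ins), -0.64 (hybridisation spike-ins), -0.78 (no scaling), -0.012 (the authors' values). miR-191-5p in the day 21 minus day 9 change (0.078) was of opposite sign at -0.34 (all-probe scaling), -0.35 (median scaling), -0.30 (quantile scaling), -0.40 (labelling spike-ins), -0.14 (hybridisation spike-ins), -0.10 (no scaling), -0.016 (the authors' values), -0.17 (total gene signal), -0.009 (the second probe). Calls in the day 21 minus day 9 change numbered 30 (hybridisation spike-ins), 43 (no scaling), 48 (normexp), 72 (total gene signal), 89 (no filter). miR-26a-5p in the day 21 minus day 3 change (-1.37) was short of the threshold at -1.58 (hybridisation spike-ins), -1.66 (no scaling), -0.38 (normexp), -1.37 (no filter). miR-26b-5p in the day 21 minus day 3 change (-1.04) was short of the threshold at -1.26 (hybridisation spike-ins), -1.33 (no scaling), -0.83 (the authors' values), -0.15 (normexp), -0.95 (total gene signal), -1.01 (mean of probes), -0.96 (the second probe), -1.04 (no filter), -1.04 (only the arrays compared). Calls in the day 21 minus day 3 change numbered 29 (labelling spike-ins), 6 (hybridisation spike-ins), 6 (no scaling), 32 (the authors' values), 0 (normexp), 17 (total gene signal), 13 (no filter). miR-26a-5p in TSN day 21 against TSN day 9 (0.96) was short of the threshold at 0.62 (all-probe scaling), 0.54 (median scaling), 0.54 (labelling spike-ins), 0.80 (hybridisation spike-ins), 0.84 (no scaling). miR-191-5p in TSN day 21 against TSN day 9 (-0.008) was of opposite sign at 0.077 (normexp), 0.017 (a lower floor). The number called in TSN day 21 against TSN day 9 became 108 (all-probe scaling), 127 (labelling spike-ins), 76 (hybridisation spike-ins), 69 (no scaling), 126 (the authors' values), 70 (normexp), 100 (total gene signal). miR-26a-5p in control day 9 against control day 3 (0.85) was short of the threshold at 0.47 (all-probe scaling), 0.64 (labelling spike-ins), 0.56 (hybridisation spike-ins), 0.55 (no scaling), 0.59 (the authors' values), 0.34 (normexp), 0.74 (total gene signal), 0.85 (no filter). miR-26b-5p in control day 9 against control day 3 (0.84) was short of the threshold at 0.47 (all-probe scaling), 0.64 (labelling spike-ins), 0.56 (hybridisation spike-ins), 0.55 (no scaling), 0.66 (the authors' values), 0.33 (normexp), 0.77 (total gene signal), 0.84 (no filter). The number called in control day 9 against control day 3 became 0 (all-probe scaling), 7 (labelling spike-ins), 0 (hybridisation spike-ins), 0 (no scaling), 28 (the authors' values), 0 (normexp), 2 (total gene signal), 11 (no filter). The within-array difference of the pair at day 3 moved to 0.66 (normexp), 0.52 (the authors' values), 0.61 (probes of 15 and 20 bases), 0.61 (probes of 15 and 19 bases). limma called 0 miRNAs in control day 9 against control day 3 with all-probe scaling, where 42 had an unadjusted p under 0.05, in control day 9 against control day 3 with hybridisation spike-ins, where 6 had an unadjusted p under 0.05, in control day 9 against control day 3 with no scaling, where 5 had an unadjusted p under 0.05, in the day 21 minus day 3 change with normexp, where 32 had an unadjusted p under 0.05, in control day 9 against control day 3 with normexp, where 12 had an unadjusted p under 0.05.

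With the replicate block, the day 3 change of miR-26a-5p was 1.79 and of miR-26b-5p 0.98, with 210 miRNAs called at day 3, and the block changed no call of a member. Leaving out 1 array at a time, miR-26b-5p in the day 21 minus day 3 change ran from -1.19 to -0.77, with the call, sign or size changed without control day 3 replicates 1 or 4, control day 21 replicates 2 or 4, TSN day 3 replicates 2 or 3 or 4, TSN day 21 replicates 1 or 3 or 4. The count in the day 21 minus day 3 change ran from 28 to 70, with the call, sign or size changed without control day 3 replicates 1 or 4, control day 21 replicates 2 or 4, TSN day 21 replicates 3 or 4. miR-26a-5p in control day 9 against control day 3 ran from 0.74 to 0.91, with the call, sign or size changed without control day 3 replicates 1 or 3 or 4, control day 9 replicates 1 or 2 or 4. miR-26b-5p in control day 9 against control day 3 ran from 0.73 to 0.91, with the call, sign or size changed without control day 3 replicates 1 or 4, control day 9 replicates 2 or 4. The count in control day 9 against control day 3 ran from 20 to 68, with the call, sign or size changed without control day 3 replicates 1 or 3 or 4, control day 9 replicates 2 or 4. miR-191-5p in the day 21 minus day 9 change ran from -0.024 to 0.20, with the call, sign or size changed without control day 9 replicate 1, TSN day 9 replicates 3 or 4. miR-26a-5p in TSN against control at day 21 ran from 0.23 to 0.66, with the call, sign or size changed without control day 21 replicate 4. miR-26b-5p in TSN against control at day 21 ran from -0.22 to 0.21, with the call, sign or size changed without control day 21 replicate 4, TSN day 21 replicates 1 or 3. miR-26a-5p in the day 21 minus day 9 change ran from 0.47 to 0.90, with the call, sign or size changed without control day 21 replicate 4. miR-191-5p in the day 9 minus day 3 change of the TSN difference ran from -0.061 to 0.21, with the call, sign or size changed without TSN day 9 replicates 1 or 2. miR-191-5p in TSN day 21 against TSN day 9 ran from -0.11 to 0.11, with the call, sign or size changed without TSN day 9 replicates 1 or 2, TSN day 21 replicates 3 or 4. No control array measured miR-191-5p, which leaves its level there unknown. The platelet, leukocyte, red cell and serum reference lists and the quantile value of the pair were recomputed as alternatives chosen after seeing the data.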
